A study of Mus musculus with 36 samples.

Results

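The *Wnt1DR* allele carries the imprinting control region (ICR) of *Rasgrf1*, that is its differentially methylated domain (DMD) and the adjoining repeats, placed 3′ of *Wnt1*. In the alternating lineage of the study, the allele passed through fathers and mothers in turn. The tails compared are those that the sample labels mark with the letter A, which are 10 of the 36 samples of the series. Of these, 6 animals had received the allele from the father (+/DR), 1 in generation F2, 2 in F4 and 3 in F6. The other 4 had received it from the mother (DR/+), 2 in F3 and 2 in F5. The question that the comparison addresses is whether the methylation of cytosines in CpG dinucleotides (5mC) on the allele followed the last parent or carried over from the parent before.

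All 10 animals were heterozygous for the same targeted allele, made in v6.5 embryonic stem cells from which the neomycin resistance cassette had been removed with FLPe, and the mice were bred into the C57BL/6 background. Every group therefore carries the insertion, and its controls are the opposite transmission and the unbroken lineages. The study describes its PCR as specific for the *Wnt1DR* allele. The animals also carry the wild-type *Rasgrf1* locus, and whether any of the reads come from it was not tested. Each library is from the tail of 1 animal, which the study describes as adult, and all 10 were sequenced in the second of 2 runs. The labels give neither the age nor the sex of the animals, and do not say which animals were parents of others. No F1 tail is labelled A, so the labels do not show whether the transmitting parent had changed before the F2 tail. DNA of a tail comes from many cell types, so a level is an average over them.

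Imprinted genes keep a mark of the parent from which they came. At the native *Rasgrf1* locus the DMD is methylated on the paternal allele and unmethylated on the maternal allele in somatic tissue, and the repeats next to it are needed for methylation to be placed in the male germline. For such a mark to work over generations it must be removed in the germ cells of each carrier and be set anew according to the sex of that carrier. A lineage in which the sex of the transmitting parent changes each time asks for this reset in both directions.

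The assay reads a stretch of 250 nt of the DMD. Its reference sequence matches the genome build NCBIM37 (mm9) once, on the plus strand at chr9:89774437-89774686, where the native copy lies between genes and ends 29.9 kb before the start of *Rasgrf1*. The copy measured here sits at *Wnt1*, which the annotation places on chromosome 15. The unconverted sequence is shown because every value below is a count over its CpGs, and capitals mark the 20 CpGs that were used.
DMD reference, 5′ to 3′: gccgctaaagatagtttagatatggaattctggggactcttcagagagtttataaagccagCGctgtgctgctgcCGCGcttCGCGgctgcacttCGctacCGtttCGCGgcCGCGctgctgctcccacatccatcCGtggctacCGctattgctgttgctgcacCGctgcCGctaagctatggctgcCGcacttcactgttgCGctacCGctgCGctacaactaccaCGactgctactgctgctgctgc
The CpG near the 5′ end that stays in lower case lies in the forward primer, where the base read is that of the primer, and it was left out. CpG 1 lies at base 62 and CpG 20 at base 229. CpGs 1 to 11 are close together, and the widest gap between neighbours, 22 nt, separates CpG 11 from CpG 12.

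Reads were used if the alignment software had not excluded them and if they matched this sequence at 98% identity or more. That left between 1717 and 11213 reads per animal, 33866 in the 6 paternal tails and 10513 in the 4 maternal tails, of 38653 reads listed for each animal. The level of an animal is the share of its calls at the 20 CpGs that were methylated, in percent. CpG calls of the same read are not independent, so the level of an animal stands with its standard error (SE) over reads. Wilson intervals at 95% confidence stand beside shares of reads. Reads carry no molecular identifiers, so these errors and intervals cover the counting of reads only. The replicate is the animal throughout. No pair of libraries within a group had the same read patterns within the noise of counting reads, which leaves out the noise of sampling molecules.

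The level of the allele followed the last parent in each of the 5 generations sampled. After paternal transmission it was 91.9% (SE 0.377) in the F2 animal 31078. Of the F4 animals, 31508 was at 91.2% (SE 0.256) and 31819 at 90.8% (SE 0.214). Of the F6 animals, 32339 was at 94.8% (SE 0.113), 32530 at 95.03% (SE 0.107) and 32529 at 78.8% (SE 0.365). Of the paternal tails, 5 thus lay close together and the 32529 library stood apart below them.

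After maternal transmission, the F3 animals 31289 and 31544 had levels of 2.41% (SE 0.124) and 1.99% (SE 0.102). The F5 animals 32181 and 32178 had levels of 2.13% (SE 0.125) and 2.15% (SE 0.0693). The maternal and paternal levels did not overlap. The group means were 90.4 ± 5.97% (SD, n = 6) and 2.17 ± 0.175% (SD, n = 4), a difference of 88.2 percentage points, with a two-sided exact permutation p = 0.00952. That is the smallest p that 6 animals against 4 allow, and it is 0.0119 after Benjamini-Hochberg adjustment over the 5 comparisons made between the transmissions. Without animal 32529 the paternal mean was 92.7 ± 2.03% (SD, n = 5).

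**Figure D1:**
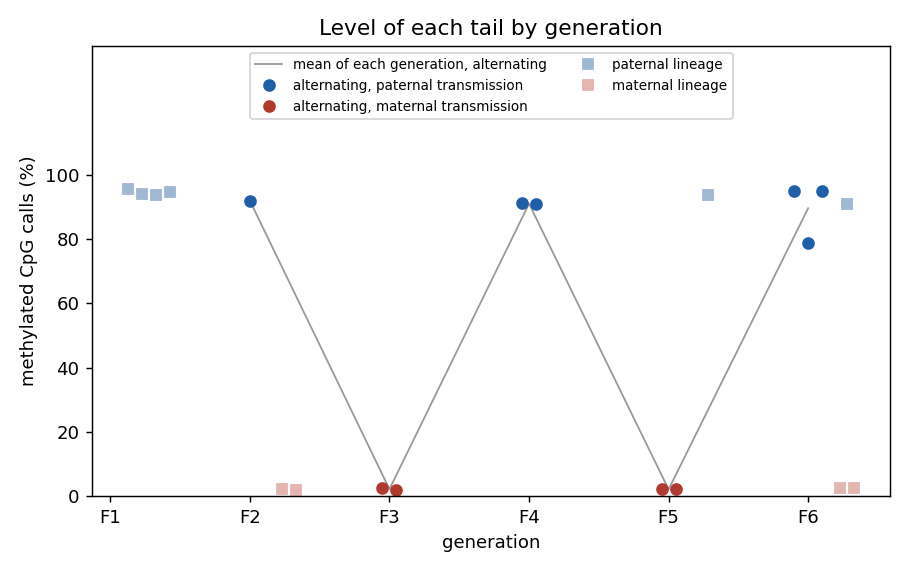
Methylation level (%, y axis) of each tail by generation (x axis). Circles are animals of the alternating lineage, squares those of the paternal and maternal lineages, and the line joins the generation means of the alternating lineage. The line goes from 91.9% in F2 to 2.20% in F3, 91.0% in F4, 2.14% in F5 and 89.5% in F6, where 1 of 3 animals lies at 78.8%.

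The SD between animals was 5.97 percentage points among the paternal tails, or 2.03 without animal 32529, and 0.175 among the maternal tails. The difference in spread was not tested. In the 4 maternal tails the generations did not separate. F5 minus F3 was -0.0577 percentage points, with 1 F3 animal above and 1 below both F5 animals (exact permutation test, two-sided, p = 1, smallest possible p = 0.333).

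In the paternal tails the generation means were 91.9% in F2, 91.0 ± 0.277% in F4 (SD, n = 2) and 89.5 ± 9.30% in F6 (SD, n = 3). Variation between generations made up 2.85% of the sum of squares of the 6 levels (exact permutation test over all 60 assignments of animals to generations, p = 0.967). Animal 32529 decided this value. Without it, variation between generations made up 99.3% of the sum of squares, with the remaining F6 animals above the F2 animal and the F2 animal above both F4 animals (exact permutation test, p = 0.0667, the smallest that 5 animals allow). The order of the generation means was F2, F4 and F6 from high to low with this animal, and F6, F2 and F4 without it. Animal 32529 was left out because of its level. The 2 files of F4 also had another identity limit than the other 8 (98% against 90%), although 98% was applied to all. For F4, generation cannot be told apart from this difference between files.

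Bisulfite turns unmethylated cytosines into thymine, and cytosines outside CpGs (CpH sites) show how complete this was. Conversion at CpHs was 99.5 ± 0.0919% (SD, n = 6) in paternal and 99.5 ± 0.0397% (SD, n = 4) in maternal tails. Paternal minus maternal was -0.0677 percentage points (exact permutation test, two-sided, p = 0.21). The share of CpHs left unconverted in the maternal tails ran from 0.414 to 0.50%, and the CpG level of each maternal library was 4.02 to 5.83 times the unconverted share of that library. When only reads with every CpH converted were taken, the maternal level was 2.14 ± 0.234% (SD, n = 4) and the paternal level 90.5 ± 5.83% (SD, n = 6).

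The reads of each tail came mostly from 1 end of the scale. Among reads with a call at all 20 CpGs, those with all 20 methylated were the commonest in 5 of the 6 paternal tails, and those with none were the commonest in every maternal tail. The 3 F6 animals differed here as they did in level. The commonest number of methylated CpGs was 20 in animal 32339 (41.3% of reads) and in animal 32530 (38.7%). In animal 32529 it was 19 (22.9%), closely followed by 18 (22.1%), and reads with all 20 made up 12.5%.

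**Figure D2:**
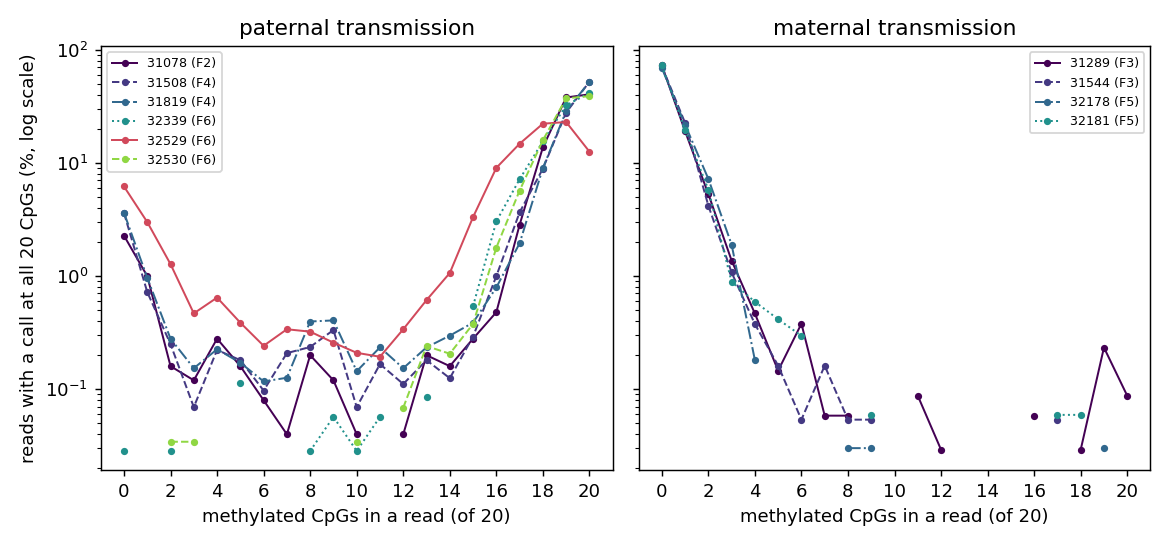
Percentage of reads (y axis, log scale) by the number of methylated CpGs in the read (x axis, 0 to 20) for the 6 paternal (left) and 4 maternal (right) tails, among reads with a call at all 20 CpGs. A number that no read had is not drawn. The 5 other paternal tails rise to 38.7 to 51.9% at 20, while animal 32529 (red) reaches 22.9% at 19 and 12.5% at 20, and the maternal tails fall from 68.9 to 72.7% at 0.

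Reads with every CpG methylated made up 40.1% of the F2 tail, 51.8% of each F4 tail, and 41.4, 12.5 and 38.9% of the F6 tails 32339, 32529 and 32530. In the maternal tails there were 3 such reads among 3491 in animal 31289 (0.0859%) and none in the other 3 animals, where a count of 0 (up to 3 reads) allows shares of 0.0876 to 0.175%. The groups did not overlap (39.4 percentage points apart, exact permutation test, two-sided, p = 0.00952, adjusted p = 0.0119). If the CpGs of a read were methylated independently at the levels of its library, 0.78 to 35.7% of paternal reads would have every CpG methylated. Each of the 6 observed shares was above its own calculated share, in animal 32529 by 12.5% against 0.78% and in animal 32530 by 38.9% against 35.7%. The levels behind the calculated shares are over all reads used, including reads with few or no methylated CpGs. A mix of such reads with highly methylated ones raises the observed share above the calculated one by itself. How much of the excess this made up was not tested.

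Reads without methylation made up 71.5 ± 1.57% (SD, n = 4) of the maternal tails, from 69.3% in animal 32178 to 72.7% in animal 31289. Independent CpGs of the same levels would leave 61.3 to 66.8% of maternal reads without methylation. Here too the levels are over all reads used, including the few with many methylated CpGs. A further 20.7 ± 1.68% (SD, n = 4) of maternal reads had exactly 1 methylated CpG, and in each maternal tail all 20 CpGs took that place in some reads. The CpG found most often alone differed between the animals, being CpG 3 in 31289, CpG 6 in 31544, CpG 8 in 32181 and CpG 1 in 32178, with 9.52 to 15.8% of the reads with 1 methylated CpG.

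Among the paternal tails, reads without methylation were 2.33% (interval 1.81 to 2.996) of the F2 tail. Both F4 tails had nearly the same share, 3.66% (3.25 to 4.11) in animal 31508 and 3.74% (3.40 to 4.10) in animal 31819. The F6 tails spread widest, with 392 of 6286 reads in animal 32529 (6.24%, 5.66 to 6.86), 1 of 3560 reads in animal 32339 (0.0281%) and 0 of 2975 in animal 32530, which allows a share of up to 0.101%. The paternal mean was 2.66 ± 2.41% (SD, n = 6), and paternal minus maternal was -68.8 percentage points, without overlap (exact permutation test, two-sided, p = 0.00952, adjusted p = 0.0119).

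The commonest call patterns are shown because they give the state of whole reads, with a filled circle for a methylated and an open circle for an unmethylated CpG, from CpG 1 on the left to CpG 20. The first was the commonest pattern of all 6 paternal tails (12.4 to 51.6% of reads), the second that of all 4 maternal tails (67.1 to 71.7% of reads). The third was the second commonest of the F2 tail 31078 (188 reads, 7.43%) and of the F6 tail 32339 (141 reads, 3.96%). The fourth, with CpG 13 alone unmethylated, held 374 reads of animal 32529 (5.95%), and the fifth, with CpGs 12, 13, 18 and 19 unmethylated, held 167 reads of the same animal (2.66%).
All CpGs methylated: ●●●●●●●●●●●●●●●●●●●●
No CpG methylated: ○○○○○○○○○○○○○○○○○○○○
CpG 12 unmethylated: ●●●●●●●●●●●○●●●●●●●●
CpG 13 unmethylated: ●●●●●●●●●●●●○●●●●●●●
CpGs 12, 13, 18 and 19 unmethylated: ●●●●●●●●●●●○○●●●●○○●
Animal 32529 was also the most varied. Its reads fell into 859 distinct patterns, of which the 26 commonest held 50% of the reads. In each of the other paternal tails of the alternating lineage 1 to 4 patterns held as many. In the F6 tail 32802 of the unbroken paternal lineage 9 patterns did.

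Reads that carried the state of the other transmission were counted as residual. A read was called opposite where fewer than 33% of CpGs were methylated after paternal transmission (at most 6 of 20), or more than 66% after maternal transmission (at least 14 of 20). The F2 tail had 104 of 2530 reads in the opposite state (4.11%, interval 3.40 to 4.96). The F4 tails had 383 of 7302 (5.25%, 4.76 to 5.78) in animal 31508 and 634 of 11213 (5.65%, 5.24 to 6.10) in animal 31819. In F6, animal 32529 had 770 of 6286 (12.2%, 11.5 to 13.1), animal 32339 had 6 of 3560 (0.169%, 0.0773 to 0.367) and animal 32530 had 2 of 2975 (0.0672%, 0.0184 to 0.245). The 6 paternal tails thus fell between under 1% and 12.2%, with both ends of the range in the same generation.

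In the maternal tails, 18 of the 10513 reads used were in the opposite state. Reads that the software excluded are not counted here and are described below. Animal 31289 held 14 of them (0.401%, 0.239 to 0.672 of its 3491 reads), animal 32181 held 2 of 1717 (0.116%), animal 31544 held 1 of 1882 (0.0531%) and animal 32178 held 1 of 3423 (0.0292%). The mean was 4.58 ± 4.48% (SD, n = 6) after paternal and 0.15 ± 0.171% (SD, n = 4) after maternal transmission. The groups overlapped, since 4 of the 6 paternal tails were above every maternal tail and the F6 tails 32339 and 32530 were not. The difference of 4.43 percentage points did not pass the test (exact permutation test, two-sided, p = 0.0667, adjusted p = 0.0667). This call turned on single libraries. The unadjusted p was 0.0476 without animal 32339, 0.0317 without animal 32530 and 0.0476 without animal 31289, with differences of 5.32, 5.34 and 4.52 percentage points. The identity limit decided the value of animal 32178. With every read that the software had not excluded, 2.85% of its reads were in the opposite state, the highest share of the 4 maternal tails, and 1.502% had every CpG methylated.

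Reads with 33 to 66% of their CpGs methylated (7 to 13 of 20) made up 1.08 ± 0.798% (SD, n = 6) of the paternal tails, from 0.281% in animal 32339 to 2.26% in animal 32529, and 0.167 ± 0.0965% (SD, n = 4) of the maternal tails, from 0.0584 to 0.266%. The groups did not overlap (0.911 percentage points apart, exact permutation test, two-sided, p = 0.00952, adjusted p = 0.0119). With the first and the last CpG left out the difference was 0.662 percentage points and no longer passed (exact permutation p = 0.152). With fewer CpGs, the limits of 33 and 66% fall at other counts of methylated CpGs. The size of the difference was set by the class limits. It was 4.45 percentage points for reads with 20 to 80% of their CpGs methylated and 18.1 for reads with 10 to 90% (exact permutation p = 0.00952 for both).

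**Figure D3:**
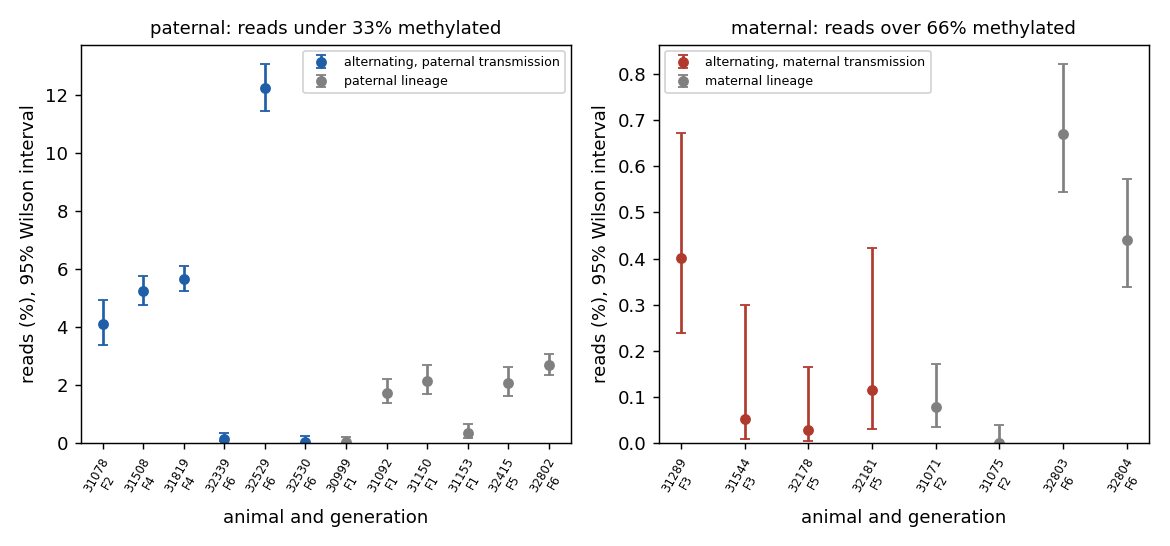
Reads in the opposite state (%, y axis) of each animal (x axis) with its 95% Wilson interval. The left panel shows reads under 33% methylated after paternal transmission and the right panel reads over 66% methylated after maternal transmission, on their own scales, with the alternating lineage in colour and the paternal or maternal lineage in grey. Animal 32529 lies at 12.2%, and 2 other F6 animals lie at 0.169 and 0.0672%.

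The 6 tails of the paternal lineage, whose allele came through fathers in every generation, are the tails with no change of parent. Of these, 4 were in F1, 1 in F5 and 1 in F6, so the lineages also differ in generation. Animals 31092 and 32802 of the paternal lineage were sequenced in the other run. Their opposite-state reads made up 1.51 ± 1.07% (SD, n = 6), from 0.0383 to 2.69%. The F2 and F4 tails and animal 32529 of the alternating lineage, 4 of 6, were above all of them. The difference of 3.07 percentage points did not pass the test (exact permutation test, two-sided, p = 0.113, adjusted p = 0.169 over 3 comparisons). Among run 2 tails alone it was 3.42 percentage points (exact permutation p = 0.143). Reads without methylation differed by 1.92 percentage points (exact permutation p = 0.0909, adjusted p = 0.169) and reads with every CpG methylated by -1.54 percentage points (exact permutation p = 0.874, adjusted p = 0.874). The first of these differences had an unadjusted p of 0.0433 without animal 32339 and of 0.039 without animal 32530. The second had an unadjusted p of 0.039 without either of them.

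The 4 tails of the maternal lineage (F2 and F6) were all sequenced in the other run, and here the lineages cannot be told apart from the runs. Reads without methylation made up 71.8 ± 1.61% (SD, n = 4) there, against 71.5% in the alternating lineage. The difference of -0.35 percentage points was smaller than the spread between animals (exact permutation test, two-sided, p = 0.771, adjusted p = 0.771 over 2 comparisons). Opposite-state reads made up 0.297 ± 0.314% (SD, n = 4) in the maternal lineage, -0.147 percentage points apart from the alternating lineage (exact permutation p = 0.486, adjusted p = 0.771). The highest share, 0.669%, was in the maternal lineage.

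The switch between parents took in all 20 CpGs. Paternal tails were above maternal tails at 20 of 20 CpGs, which is 100% of those tested, without overlap at any of them (exact permutation test, two-sided, p = 0.00952 at each CpG, 0.00952 after Benjamini-Hochberg adjustment over the 20). Single CpGs of single animals ran from 56.8 to 98.8% after paternal and from 0.409 to 5.52% after maternal transmission, each from 1714 to 11213 calls. The largest difference was at CpG 15 (chromosome 9, position 89774608 of the native copy), with 91.6 ± 4.25% (SD, n = 6) against 1.02 ± 0.167% (SD, n = 4). The smallest was 82.6 percentage points, at CpG 12 (89774573).

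CpG 12 had the lowest mean of the paternal tails, 83.6 ± 8.79% (SD, n = 6). It was the lowest CpG of animals 31078 (82.9%), 31508 (86.7%) and 32339 (86.0%), while the lowest was CpG 20 in 31819 (85.4%), CpG 11 in 32530 (84.9%) and CpG 13 in 32529 (56.8%). CpG 8 had the highest paternal mean, 93.5 ± 4.45% (SD, n = 6). The SD between paternal animals was largest at CpG 13, 14.9 percentage points, and smallest at CpG 17, 4.01 percentage points. Without animal 32529 the SD at CpG 13 was 3.19 percentage points, and the SDs ran from 1.497 at CpG 17 to 4.60 at CpG 11. CpGs 18 and 19 had paternal means of 88.6 ± 7.03% and 88.1 ± 7.90% and maternal means of 1.18 ± 0.501% and 1.48 ± 0.291%. They lie inside PDS2847, a primer that the study used to detect the *Wnt1DR* DMD in its chromatin assay.

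Among the maternal tails CpG 1 had the highest mean and the largest spread, 4.33 ± 1.103% (SD, n = 4), from 3.03% in animal 31544 to 5.52% in animal 32178. CpG 20 had the lowest mean, 0.807 ± 0.241%, and CpG 15 the smallest SD, 0.167 percentage points. Against the paternal lineage, 0 of 20 CpGs (0%) were called in paternal tails by the exact permutation test with Benjamini-Hochberg adjustment, and 3 had an unadjusted p under 0.05. The mean of the alternating lineage was below that of the paternal lineage at all 20 CpGs, with differences of -6.59 to -1.54 percentage points. Animal 32529 decided this count. Without it the alternating lineage was below at 16 CpGs and above at CpGs 1, 3, 7 and 14, the differences ran from -3.78 to 1.03 percentage points, and the one at CpG 13 went from -6.59 to -0.622. The exact permutation test then gave 1 CpG with an unadjusted p under 0.05 and 0 with an adjusted one. Among run 2 tails alone, 1 CpG had an unadjusted p under 0.05 and none an adjusted one.

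**Figure D4:**
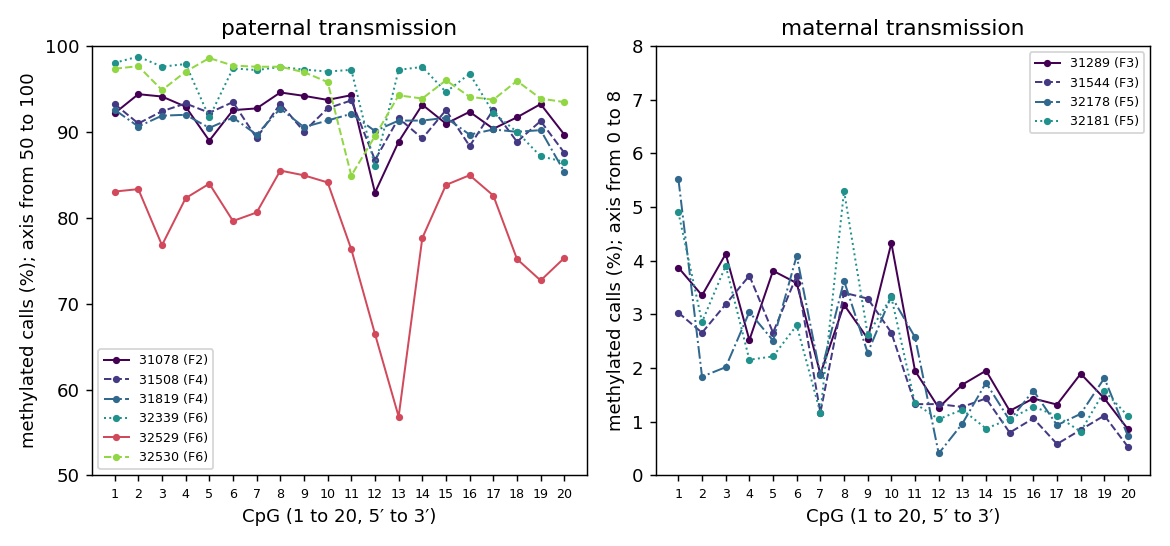
Methylation level (%, y axis) at each of the 20 CpGs (x axis) of the 6 paternal tails (left, axis from 50 to 100%) and the 4 maternal tails (right, axis from 0 to 8%), with 1 line per animal. Animal 32529 (red) is the lowest at every CpG and reaches 56.8% at CpG 13, and the maternal tails are higher over the first 10 CpGs than over the last 10.

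In the reads used of the alternating lineage, both states sloped along the sequence. In the maternal tails CpGs 1 to 10 had a mean of 3.10 ± 0.162% and CpGs 11 to 20 one of 1.24 ± 0.203% (SD, n = 4), and the first were higher in 4 of 4 animals by 1.72 to 1.98 percentage points. The 2 ranges did not overlap, but p was 0.125 in an exact test that flips signs over the animals, which is as low as 4 animals can go. In the paternal tails these means were 92.2 ± 5.38% and 88.6 ± 6.70% (SD, n = 6), and the first were higher in 6 of 6 animals (3.53 percentage points, exact sign-flip permutation test, two-sided, p = 0.0312, the smallest that 6 animals allow). The size of the paternal slope differed with the animal, from 1.15 percentage points in the F4 animal 31819 to 4.51 in 32339 and 7.23 in 32529. In the paternal lineage it ran from -1.82 in animal 32802 to 3.10 percentage points. The paternal slope also differed with the kind of read. Opposite-end reads, described below, had 94.1 and 93.3% over the last 9 CpGs in the F4 animals 31819 and 31508. That was above the 91.3 and 92.1% of their first 10 CpGs in the reads used. In the other paternal tails it was below.

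Animal 32529 was low in 2 separate ways. It had more reads in the opposite state than the other paternal tails (12.2%), and its highly methylated reads carried fewer methylated CpGs. Among reads over 66% methylated, it had a mean of 18.002 methylated CpGs per read, against 19.2 ± 0.166 (SD, n = 5) in the other paternal tails, which ran from 19.0 to 19.4. In the paternal lineage the range was 18.7 to 19.2, with the F6 animal 32802 lowest. The level of these reads alone was 90.05% in animal 32529 and 95.02 to 96.8% in the other 5 animals. Its conversion at CpHs (99.6%) was the highest of the 6 paternal tails, and its number of reads (6286) was within the range of the others.

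The shortfall in these highly methylated reads was not even along the sequence. At 8 of the 20 CpGs, namely 5, 8, 9, 10, 11, 15, 16 and 17, animal 32529 was within the range of the other 5 animals, and at the other 12 it was below it. CpG 13 stood farthest off, with 65.4% against 95.9 ± 2.19% (SD, n = 5), followed by CpG 12 with 76.8% against 90.2 ± 4.14% and CpG 19 with 82.1% against 94.0 ± 3.81%. Counted over all reads used, the same 3 CpGs had the largest shortfall, -35.8 percentage points at CpG 13, -20.6 at CpG 12 and -18.4 at CpG 19. The smallest shortfalls were -8.85 at CpG 9, -8.42 at CpG 5 and -7.29 at CpG 16. This animal was singled out for its level, so its values are a description and were not tested.

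**Figure D5:**
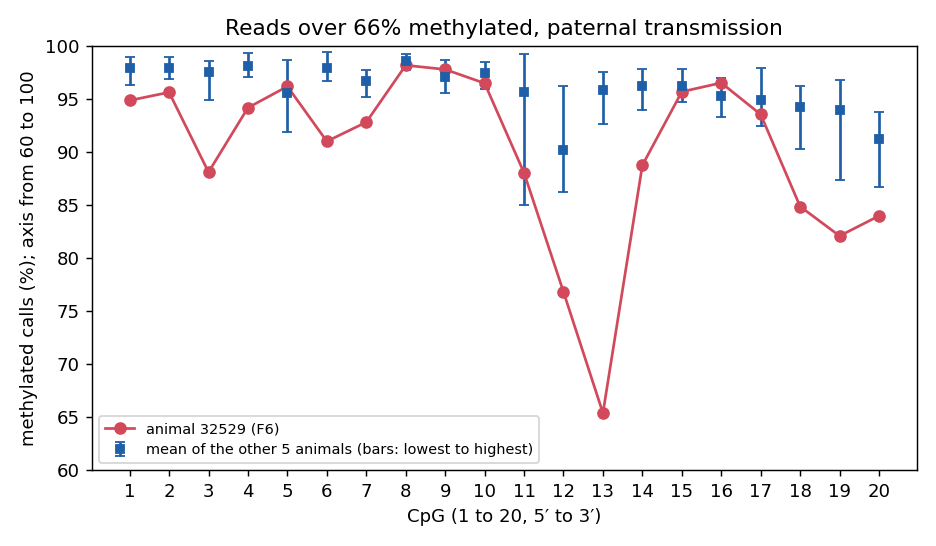
Methylation level (%, y axis from 60 to 100%) at each CpG (x axis) among reads over 66% methylated, for animal 32529 (red line) and for the other 5 paternal tails (squares are means, bars run from the lowest to the highest animal). Animal 32529 is at 65.4% at CpG 13, where the lowest of the other animals is at 92.6%, and it is within their range at 8 CpGs.

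In this animal, CpGs 12 and 13, and CpGs 18 and 19, were often unmethylated in the same reads. Among its 5374 reads over 66% methylated, 12.4% were unmethylated at both CpG 12 and CpG 13, against 8.02% if the CpGs were independent at their levels. In the other 5 animals 0.125 to 0.675% of such reads lacked both. CpGs 18 and 19 were unmethylated together in 9.10% of these reads of animal 32529, against 2.71% if independent, and in 0.27 to 0.693% of those of the others. All 4 of these CpGs were unmethylated in 245 of its reads (4.56%), in 1 read of animal 32530 and in no read of the other 4 animals. These 4 CpGs were picked after their values had been seen, and without molecular identifiers the number of molecules behind the 245 reads is unknown. The same counts were not made in the paternal lineage. There a pattern lacking only CpGs 6 and 19 held 186 reads of the F6 animal 32802 (2.48%).

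Reads of the opposite end of the PCR product gave a further reading of the same libraries. The software had excluded them because they cover only part of the reference. Their numbers of CpGs and CpHs are those of its last 115 bases, which hold the last 9 CpGs, and they were taken for reads from that end. This comparison was added after seeing the data. Between 250 and 11425 such reads per animal met the conversion limits of the files. The mean percentage of methylated CpGs per read was 92.1% in the F2 tail and 93.3 and 94.1% in the F4 tails 31508 and 31819. In F6 it was 91.9% in animal 32339, 81.2% in animal 32529 and 87.1% in animal 32530, which had only 400 such reads. In the maternal tails it was 1.82% in 31289, 1.21% in 31544, 1.12% in 32181 and 0.938% in 32178.

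The transmissions were 88.7 percentage points apart in these reads, without overlap (exact permutation test, two-sided, p = 0.00952, the smallest possible). Animal 32529 was again the lowest of the 6, and 3.44% of its opposite-end reads had no methylation, the largest share of the 6. That share was lower than among the reads used at the same 9 CpGs, where it was 8.92%. The shares of the F4 animals were also lower in opposite-end reads, 1.62% against 4.204% in 31508 and 1.62% against 4.43% in 31819, as was that of the F2 animal, 1.72% against 2.85%. In animals 32339 and 32530 these shares were at most 0.25% in either kind of read. Against the reads used, at the same 9 CpGs, opposite-end reads were higher by 1.77 to 6.12 percentage points in 4 of the 6 paternal tails, while the difference was -0.136 in animal 32339 and -6.72 in animal 32530. In the maternal tails the 2 kinds of read differed by -0.21 to 0.372 percentage points. Both kinds are of the same libraries, so they do not count as separate samples.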

How the data were processed

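Tail DNA was bisulfite converted and amplified with primers for the *Wnt1DR* DMD, and the product was sequenced on a MiSeq. The authors filtered reads on quality, shortened the files of run 2 and aligned each read to the unconverted 250-nt reference with a local installation of QUMA (version not given in the sources used here). The deposited files give per read the counts of methylated CpGs, of gaps and of unconverted and total CpHs, and, as the authors' software computed them, the percent identity, percent of CpHs converted and percent of CpGs methylated. The files excluded reads with over 10 mismatches, over 5 unconverted CpHs or under 95% conversion. The identity limit was 98% in the 2 files of F4 and 90% in the other 8, and 98% was applied to all.

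Groups were taken from the labels. The F5 animal 32415 is labelled as paternal lineage and was kept there, although a supplement of the study lists it under the alternating lineage. Per-animal values were compared by two-sided exact permutation or sign-flip tests with a threshold of 0.05 and Benjamini-Hochberg adjustment within each family. The CpGs named are those with the highest and lowest mean and SD in each group, the largest and smallest difference between transmissions, the 3 largest and 3 smallest shortfalls of the lowest paternal animal, and CpGs 18 and 19. The animals, tests and rules were chosen with earlier results of these data known. Each pair of libraries of a group was compared by a chi-square test over read patterns, and all 15 paternal and 6 maternal pairs had a p under 0.05. This test takes reads as independent, so it covers the counting of reads only. Alternatives changed 1 choice at a time. The reference was matched to NCBIM37 with its GENCODE annotation. The code was tested on simulated data and ran in Python 3.11.15 with NumPy 2.4.6, SciPy 1.17.1 and Matplotlib 3.10.9. Other tissues of the series were not used here.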

Additional observations from a re-analysis of the deposited data

Results flagged for a closer look

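Outlying samples were looked for in 25 sets of values, and 8 were found, where chance alone marks about 1 in 20 sets. Animal 32529 lay far below the 5 other paternal tails in its level (78.8%), in its reads with every CpG methylated (12.5%) and in the levels of CpGs 12 (66.5%), 13 (56.8%), 17 (82.6%), 18 (75.2%) and 19 (72.7%). These sets come from the same reads and are not independent. Animal 31289 was marked for its reads with every CpG methylated (0.0859%, 3 reads) because the other 3 maternal tails had none. A count of 0 allows 0.0876 to 0.175% in those tails, so this animal cannot be said to differ from them.

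In the files of 3 maternal tails, reads outside the comparisons were more methylated than the reads used. In animal 32178, 372 reads with an identity between 90 and 98% had a level of 30.4%, and 28.8% of them were over 66% methylated. The other maternal tails had 21 to 36 such reads, with levels of 1.30 to 6.01%. Among excluded reads, 4933 reads of animal 31544 with 115 gaps had a mean of 95.4% of their CpGs methylated, and 2310 reads of animal 32181 with 119 gaps had a mean of 92.5%. Both kinds outnumbered the reads used of the same animal, 1882 in 31544 and 1717 in 32181. The origin of these reads was not tested.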

How the results depend on the processing

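The difference in level between the transmissions kept its direction and passed the test under every alternative but 1. With only libraries of at least 3000 reads, 4 paternal and 2 maternal tails remained, which cannot reach an exact p under 0.133. There the differences were 86.6 percentage points in level, -67.6 in reads without methylation, 39.3 in fully methylated reads and 1.23 in partly methylated reads, and 0 CpGs were called. Bonferroni adjustment also left 0 CpGs, since the smallest p times 20 is above the threshold. Without the first and last CpG, partly methylated reads differed by 0.662, and the cause was not tested. Wider limits for partly methylated reads, 20 and 80% or 10 and 90%, gave 4.45 and 18.1 by their construction. Medians gave 4.59 for opposite-state reads (exact permutation p = 0.0476). Every read not excluded turned the difference of opposite-state reads between A and M to 0.571 and that of level between F5 and F3 to 1.36 percentage points. Under that setting the level of animal 32178 was 4.92%. Only reads with every CpH converted turned the A minus M difference in reads without methylation to 0.272, and the cause was not tested.

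With 1 animal left out in turn, the differences ranged as follows, in percentage points. Opposite-state reads differed by 2.90 to 5.34 between transmissions and by 1.54 to 3.97 between A and P. Reads without methylation differed by 1.21 to 2.45 between A and P and by -0.984 to 0.38 between A and M. Fully methylated reads differed by -4.03 to 3.84 between A and P, the last without animal 32529. The paternal slope ran from 2.79 to 4.01, and 5 animals cannot reach an exact p under 0.0625. The F5 minus F3 difference ran from -0.268 to 0.152. The transmissions could not be paired, because they are different animals and the labels do not say which were parents of others. At the depth of the maternal libraries, a count of 0 allows shares of up to 0.0859 to 0.175% of the reads.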

Other observations

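Several kinds of read that the software had excluded, wholly or in part, differed from the reads used, and their origin was not tested. Kinds were taken by the number of gaps in the alignment, where at least 1000 reads of an animal had no other mismatch. Reads with 9 gaps had a mean of 45.6% of CpGs methylated in the F4 animal 31508 (3590 reads) and 11.2% in the F4 animal 31819 (3652 reads). In the F2 animal 31078 the 418 reads of this kind had a mean of 97.1%, and in the maternal F5 animal 32178 the 209 of this kind had 91.5%. The other 6 tails had at most 38 such reads each. Reads with 106 gaps had a mean of 49.9% in animal 31508 (6979 reads) and 10.04% in animal 31819 (1378 reads), and the other 8 tails had at most 4 of them.

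Reads with 115 gaps and reads with 119 gaps each appeared in opposite states within 1 animal. In the maternal F3 animal 31544 the former had a mean of 95.4% of CpGs methylated and the latter 2.80% (2870 reads). In the maternal F5 animal 32181 it was the reverse, 4.22% (1886 reads) and 92.5%. Among paternal tails, animal 32339 had 3.31% (939 reads) and 94.8% (1541 reads), and animal 31819 had 83.9% (224 reads) and 5.79% (192 reads).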
